A study of Mus musculus with 6 samples.

Results

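A set of 10 keratin genes, markers of basal and luminal epithelium and keratins of stress and stratification, was examined in a list of open-chromatin regions from mouse prostate basal stem cells. The genes were fixed by name, with earlier results of these data known: Krt5, Krt14, Krt17, Krt16, Krt13, Krt19, Krt8, Krt18, Krt6a and Krt75. These are 10 of the 21887 protein-coding genes placed on mm10, 5 of them in the keratin cluster of chromosome 11 and 5 in that of chromosome 15. A region was linked to a gene when its centre lay inside the gene span or within 100 kb of it, which joined 10 of the 6502 listed regions to the set. The assay was ATAC-seq, in which a transposase cuts accessible DNA. It was run on 3 libraries from inflamed and 3 from naive prostates. Inflamed mice were POET3, a strain whose prostate expresses ovalbumin as a transgene, and had received activated splenocytes of OT-1 donors, whose T cells recognise ovalbumin, 7 days before the prostates were taken. Naive libraries carry the genotype label WT, although the protocol for tissue extraction names POET3 mice for naive and inflamed prostates alike, so genotype and inflammation cannot be told apart. In both groups the cells were sorted without culture by the presence of Sca-1 and CD49f and the absence of CD45 and CD31, which mark leukocytes and endothelium. The labels give no age and do not say how many mice made up a library.

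The authors' list is the one named in the labels of all 6 libraries and holds coordinates only. It has no signal, fold change, direction or value per library, so nothing can be said of which group had the more open chromatin at a region. It was taken to hold regions that differed between the groups, because "diff" stands in its name and edgeR is among the tools in the submitters' processing notes. No depth, replicate error or test between inflamed and naive libraries could be had, and the basal identity of the sorted cells could not be read from keratin accessibility.

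Keratins are the intermediate filament proteins of epithelial cells. An acidic type I chain, most of them encoded on mouse chromosome 11, pairs with a basic type II chain, encoded on chromosome 15, and the pairs assemble into filaments anchored at desmosomes and hemidesmosomes. In the prostate, Krt5 with Krt14 marks basal cells and Krt8 with Krt18 marks luminal cells, and in skin Krt6a, Krt16 and Krt17 are induced by wounding and hyperproliferation. Krt18 is the type I gene that lies apart from its family, beside Krt8 at the end of the type II cluster.

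Of the 10 keratin genes, 8 had a listed region within 100 kb, and the luminal pair Krt8 and Krt18 had none. Of the 21887 protein-coding genes, 9343 (42.7%) had such a region, as did 38.0% of the 5000 protein-coding genes of like length (2.81 to 10.6 kb), 47.0% of those of chromosome 11 and 37.1% of those of chromosome 15. The 8 genes share their regions, since 10 regions made 27 pairs of a gene and a region. The count is therefore not one of 8 separate observations. No region was centred inside any of the 10 genes, against 10.2% of all protein-coding genes and 1.94% of those of like length. The list is made up, but for a single region, of narrow regions of 0.143 kb and wide regions of 0.451 kb, and all 10 regions were narrow. In the list as a whole 3210 of 6502 regions (49.4%) were narrow, on chromosome 11 221 of 305 (72.5%) and on chromosome 15 113 of 237 (47.7%). What the widths stand for is not given in the sources used here.

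Letters could be read for a single region of the 10, because it lies whole within a promoter window of the RefSeq table (build GRCm38.p6, plus strand). It is the region at chr11:100319785-100319927, at the translation initiation factor gene Eif1, and runs from 164 to 22 bases before that gene's annotated start. It is shown because it is the only listed region near a keratin gene whose sequence was at hand. A further 4 sequences are promoters of the set, from 250 bases before the annotated start to its first 15 bases: Krt75, whose nearest region lay closest to the annotated start among genes of the set with a listed strand, the basal gene Krt5, and the luminal pair without a region. Capitals mark matches, on either strand, to 6 short motifs. The AP-1 site, bound by Fos and Jun proteins, was searched as TGANTCA. The TATA box, which helps to place the start of transcription, was searched as TATAAA. The GC box, a site of Sp1 and related factors, was searched as GGGCGG. The CACCC box, a site of Klf factors, was searched under its own letters. For the androgen receptor, a half-site with the letters TGTTCT was searched. The NF-kB motif was searched as GGG, any 2 bases and then TTTCC. None of the motifs contains another.
Eif1 region, chr11:100319785-100319927, plus strand: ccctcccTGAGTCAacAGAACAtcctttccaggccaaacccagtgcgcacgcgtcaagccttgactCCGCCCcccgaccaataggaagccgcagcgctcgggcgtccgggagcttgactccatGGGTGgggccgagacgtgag
Krt75, chr15:101573890-101574154, minus strand: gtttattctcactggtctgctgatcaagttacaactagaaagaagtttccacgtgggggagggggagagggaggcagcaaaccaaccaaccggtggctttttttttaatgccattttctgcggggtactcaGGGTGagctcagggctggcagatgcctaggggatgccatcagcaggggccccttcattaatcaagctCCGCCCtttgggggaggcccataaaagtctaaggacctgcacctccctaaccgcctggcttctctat
Krt5, chr15:101712891-101713155, minus strand: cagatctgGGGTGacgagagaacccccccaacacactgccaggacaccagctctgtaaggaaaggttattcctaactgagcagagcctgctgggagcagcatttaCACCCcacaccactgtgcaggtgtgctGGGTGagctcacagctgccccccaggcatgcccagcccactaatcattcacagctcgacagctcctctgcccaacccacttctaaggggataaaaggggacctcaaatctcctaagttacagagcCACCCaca
Krt8, chr15:102004328-102004592, minus strand: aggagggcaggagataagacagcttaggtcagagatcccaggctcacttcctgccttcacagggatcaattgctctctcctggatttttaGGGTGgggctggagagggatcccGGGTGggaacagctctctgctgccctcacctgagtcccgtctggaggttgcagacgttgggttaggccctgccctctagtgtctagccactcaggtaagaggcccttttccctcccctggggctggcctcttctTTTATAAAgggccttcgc
Krt18, chr15:102027966-102028230, plus strand: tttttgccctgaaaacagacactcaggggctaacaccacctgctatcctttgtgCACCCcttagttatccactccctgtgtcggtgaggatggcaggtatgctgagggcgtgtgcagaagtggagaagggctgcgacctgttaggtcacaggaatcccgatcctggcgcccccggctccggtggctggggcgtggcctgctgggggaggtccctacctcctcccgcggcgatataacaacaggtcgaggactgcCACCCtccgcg

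The Eif1 region held an AP-1 match that begins 157 bases before the gene's start, an androgen receptor half-site at 148, a GC box at 98 and a CACCC box at 41. Over the full windows of 300 bases, 6 of the 10 keratin genes matched the promoter table with 7 windows, since Krt13 has a pair of annotated starts. Krt17, Krt16, Krt19 and Krt6a have no entry. CACCC was in all 7 windows, against 24 of 30 windows of other keratin genes and 57.5% of the 32851 promoter windows of the table. TATAAA was in the Krt8 window only, beginning 1 base before the annotated start, while 18 of 30 windows of other keratin genes held it and 13.6% of all windows. TGANTCA was in both Krt13 windows and in none of the 30 of other keratin genes, against 7.81% of all. TGTTCT was in 2 of the 7 windows (Krt13 and Krt18), against 6 of the 30 and 18.97% of all, and GGGCGG in 1 (Krt75), against 1 of the 30 and 35.7%. The NF-kB motif was in 1 (Krt14), against 1 of the 30 and 1.63% of all. The Krt14 window and 1 of the Krt13 windows are those of annotated starts inside the gene span. A match is a run of letters and does not show that a factor binds there. Only exact letters were counted, so the lack of a match does not show that a site of that kind is absent.

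Among the basal keratins, Krt14 lay amid more regions than any other gene of the set, yet none was near it. Krt14 (NCBI gene 16664, chr11:100203162-100207510, minus strand) had 6 regions within 100 kb. The nearest, at chr11:100221810-100221952, was centred 14.4 kb beyond the upstream end of the gene span. The other 5 lay 41.7, 43.5, 47.4, 57.1 and 89.4 kb from the gene, and of the 6 only the nearest had Krt14 as its nearest protein-coding gene. Krt5 (gene 110308, chr15:101707069-101712905, minus strand), which encodes the type II partner of the Krt14 protein, had 1 region. That region was centred 12.6 kb beyond the downstream end, 18.5 kb from the annotated start, and lay nearer to Krt6a. Both partner genes thus had their nearest region over 10 kb away and neither had one at its start.

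Krt17, which is found in basal cells of glands and is induced in injured skin, had a closer region. The gene (16667) spans chr11:100256215-100261029, and the region at chr11:100254802-100254944 was centred 1.34 kb beyond its lower-coordinate end. In all, 5 regions lay within 100 kb of Krt17, the others at 7.00, 34.3, 58.8 and 96.6 kb.

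The hyperproliferation keratins Krt6a and Krt16 had a region beside the gene. Krt6a (gene 16687, chr15:101689928-101694305) encodes a type II chain that pairs with the Krt16 product in skin. Its region, at chr15:101694350-101694492, was centred 116 bases beyond the higher-coordinate end of the gene and began 45 bases from it. It was the sole region within 100 kb of Krt6a, and the same region is the one nearest to Krt5. Krt6a and Krt6b are closely similar copies, and how reads that fit both were placed is not given in the sources used here. At Krt16 (gene 16666, chr11:100246091-100248902), the region at chr11:100249141-100249283 was centred 310 bases beyond the higher-coordinate end. Krt16 had 5 regions in the window, the next at 5.97 kb being the one nearest to Krt17. Krt6a and Krt16, which lie on different chromosomes, thus each had a region just outside the higher-coordinate end. Of the 8 genes with a region, 5 had the nearest one beyond that end. The other 3 had it beyond the lower-coordinate end, among them Krt17 at 1.34 kb and Krt13 at 3.58 kb.

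Krt19 was the luminal gene with regions. It encodes a small type I keratin of simple epithelia that is also found in intermediate cells. The gene (16669) spans chr11:100140810-100145926, and the region at chr11:100145989-100146131 was centred 134 bases beyond its higher-coordinate end and began 63 bases from it. Another region, at chr11:100159566-100159708, lay 13.7 kb beyond the same end and also had Krt19 as its nearest protein-coding gene. The RefSeq tables used give no strand for Krt19, Krt16, Krt17 and Krt6a. All 20 keratin genes of chromosome 11 with a listed strand lie on the minus strand, as do 14 of 16 on chromosome 15 (Krt7 and Krt18 lie on the plus strand), and on that strand the higher-coordinate end is the 5′ end. Krt19, Krt6a and Krt16 were the 3 of 10 keratin genes with a region within 1 kb, against 11.5% of all protein-coding genes and 3.32% of those of like length.

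Krt8 and Krt18 stood in a stretch with no listed region. Krt8 (gene 16691, chr15:101996711-102004342, minus strand) and Krt18 (gene 16668, chr15:102028216-102032026, plus strand) form the filament pair of simple epithelia and are neighbours. The nearest region to both, at chr15:102279394-102279536, lay 275 kb from Krt8 and 247 kb from Krt18. Its nearest protein-coding gene was the transporter gene Mfsd5. On the other side, the first region was the one at Krt6a, so that 585 kb of chromosome 15 separated the centres of the regions that flank the pair. Their promoters, shown above, therefore held no listed region. A region within 100 kb was listed for 37.1% of the protein-coding genes of chromosome 15 and 42.7% of all, so most genes lacked one. Neighbouring type II genes lacked one too, from Krt2 at 116 kb to Krt78 at 252 kb. The pair lies in a single stretch, so its genes are not separate observations. A region can be missing from the list because it was not accessible or because it did not pass the authors' selection, and these cannot be told apart here.

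Krt13 and Krt75 belong to stratified epithelium and to the hair follicle. Krt13 (gene 16663, chr11:100117327-100121566, minus strand), a type I keratin of the upper layers of internal stratified epithelia, had 3 regions. The nearest, at chr11:100113679-100113821, was centred 3.58 kb beyond the downstream end, and the others at 24.5 and 38.1 kb were the pair assigned to Krt19. Krt75 (gene 109052, chr15:101563343-101573904, minus strand), a type II keratin of the companion layer of the hair follicle, had 2 regions, both upstream of its annotated start. They lay 1.81 kb away, at chr15:101575643-101575785, and 10.8 kb away, at chr15:101584676-101584818. Of the 4 keratin genes with both a region and a listed strand, Krt14 and Krt75 had the nearest region upstream and Krt5 and Krt13 had it downstream.

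**Figure D1:**
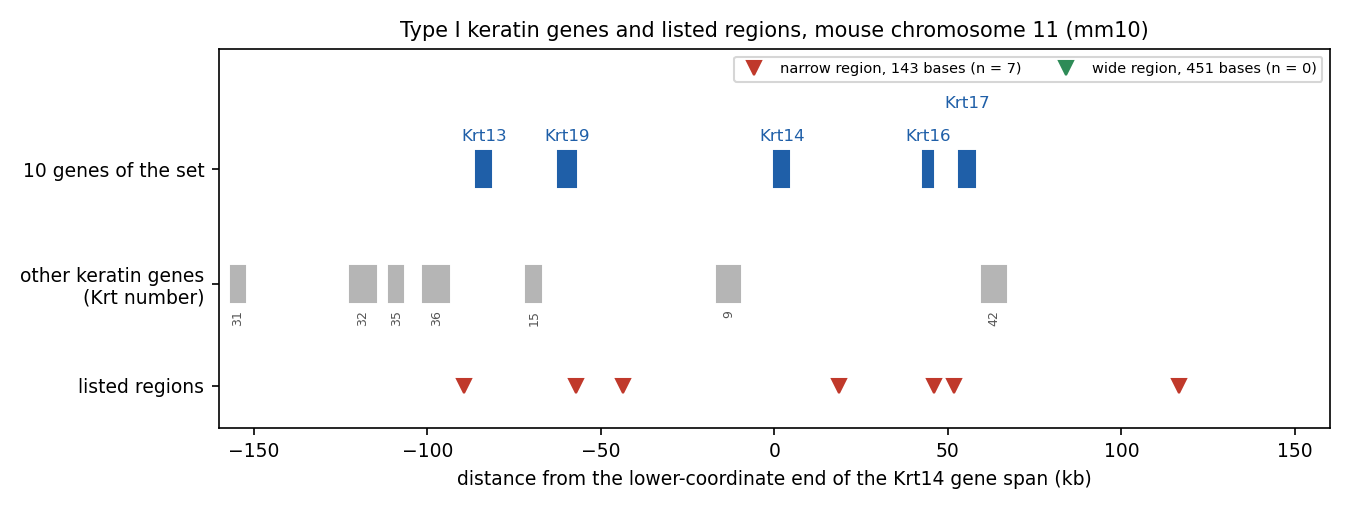
Keratin genes (bars) and listed regions (triangles) of mouse chromosome 11, by distance in kb from the lower-coordinate end of Krt14. All 7 regions shown are narrow, and the one farthest right is at Eif1.

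**Figure D2:**
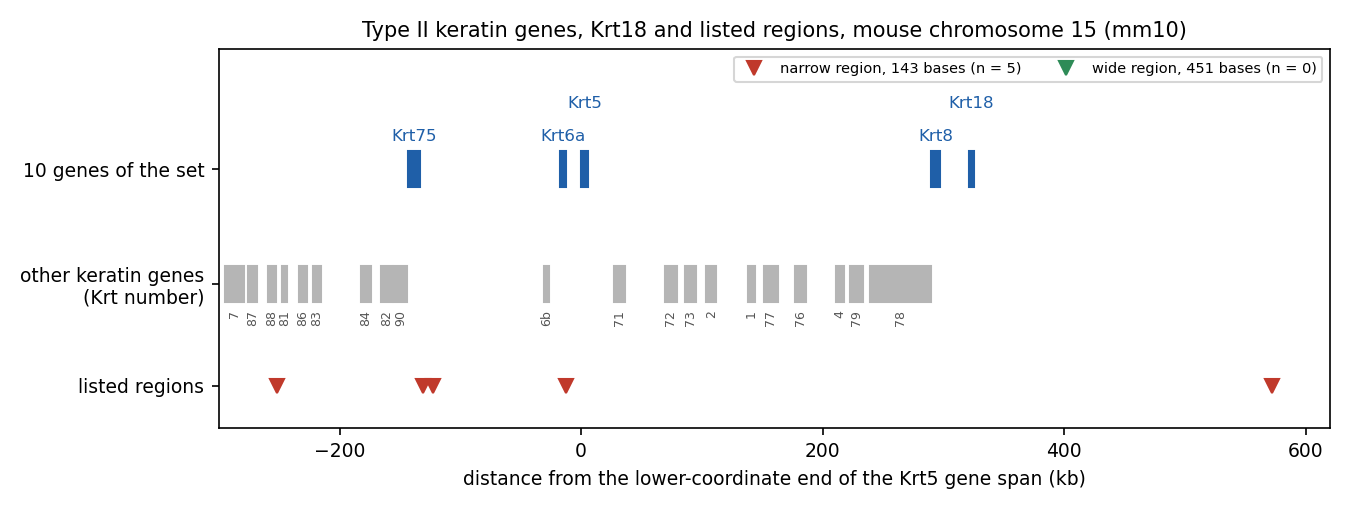
Keratin genes (bars) and listed regions (triangles) of mouse chromosome 15, by distance in kb from the lower-coordinate end of Krt5. The 3 regions nearest to Krt75 and Krt6a lie within 100 kb of a gene of the set. The outer ones have Krt88 and Mfsd5 as nearest protein-coding gene, and none lies near Krt8 or Krt18.

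The maps of both clusters show groups of regions among the keratin genes, with long gaps that hold further keratin genes. On chromosome 11, 7 regions lay in 206 kb between chr11:100113679 and chr11:100319927, with 5.66 to 65.0 kb between neighbouring centres. The next listed regions were 605 kb below and 800 kb above them. The lower gap ends at the Krt39 region and holds Krt39, Krt40, Krt31, Krt32, Krt33a, Krt33b, Krt34, Krt35 and Krt36, and the gap of 585 kb on chromosome 15 holds Krt5, Krt8, Krt18 and the type II genes between Krt5 and Krt8. Within the 144 kb from Krt13 to Krt17 there were 5 regions, or 34.8 per Mb, against 2.50 per Mb over chromosome 11 and 2.41 per Mb over the whole list. Over the 1037 kb that hold all 27 keratin genes of chromosome 11 there were 7 regions, or 6.75 per Mb. The 5 genes of chromosome 15 span 469 kb with 3 regions, or 6.40 per Mb, against 5.85 per Mb over all 26 keratin genes there and 2.28 per Mb for that chromosome. These densities describe stretches that end at keratin genes and carry no test. The last of the 7 regions, at Eif1, lay 58.8 kb from Krt17 and 71.0 kb from Krt16, and it was the region of the 10 whose nearest protein-coding gene was not a keratin of the set.

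By nearest protein-coding gene, 9 of the 10 regions went to the set, with 2 each to Krt19 and Krt75 and 1 each to Krt13, Krt14, Krt16, Krt17 and Krt6a. That gave 7 of the 10 genes a region of their own, against 16.9% of all protein-coding genes and 7.86% of those of like length. Krt5, Krt8 and Krt18 had none. The 100 kb limit fell between values that were close together for some pairs. The pair of Krt17 and the farther Krt19 region, at 96.6 kb, was inside it, and that of Krt16 and the nearer Krt19 region, at 100.03 kb, was outside, as was Krt13 with the region nearest to Krt14 at 100.3 kb.

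**Figure D3:**
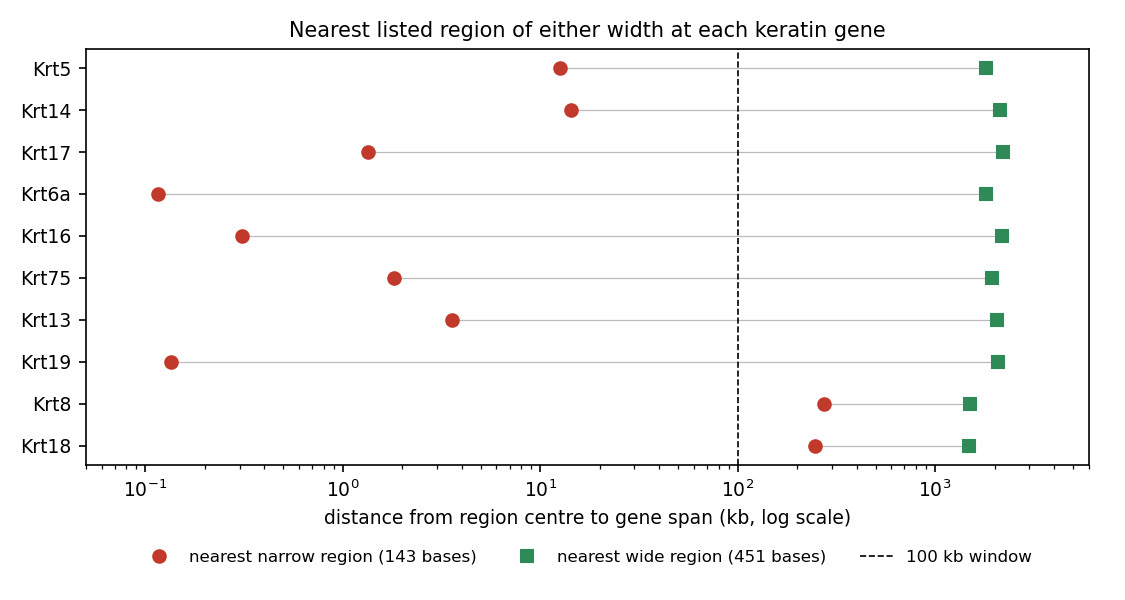
Distance in kb (log scale) from each keratin gene to the centre of the nearest narrow region (circles) and the nearest wide region (squares), with the 100 kb window dashed. Circles lie at 0.116 to 14.4 kb for 8 genes and beyond 100 kb for Krt8 and Krt18, and every square lies beyond 1 Mb.

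Wide regions were far from all 10 genes. The nearest was 1.48 Mb away for Krt18, 1.51 Mb for Krt8 and 1.80 Mb for Krt5, and the farthest was 2.20 Mb away, for Krt17. No gene of the set had a wide region within 100 kb, against 19.7% of all protein-coding genes, 8.95% of those of chromosome 11 and 16.6% of those of chromosome 15. The 8 genes with a region had a narrow one, against 29.0% of all protein-coding genes, 41.6% of those of chromosome 11 and 26.2% of those of chromosome 15. The median distance to a wide region was 1999 kb for the 10 genes and 649 kb for all protein-coding genes. It was 1268 kb for genes of chromosome 11, 1312 kb for those of chromosome 15 and 1771 kb for the other keratin genes. For narrow regions the order was the other way, with medians of 2.69 kb for the 10 genes and 244 kb for all. The median narrow distance was 139 kb on chromosome 11, 286 kb on chromosome 15 and 70.2 kb for the other keratin genes. The plot of both distances by gene shows a narrow region nearer than a wide one at each of the 10 genes, and since the genes lie in 2 stretches of chromosome the distances are not independent of each other.

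**Figure D4:**
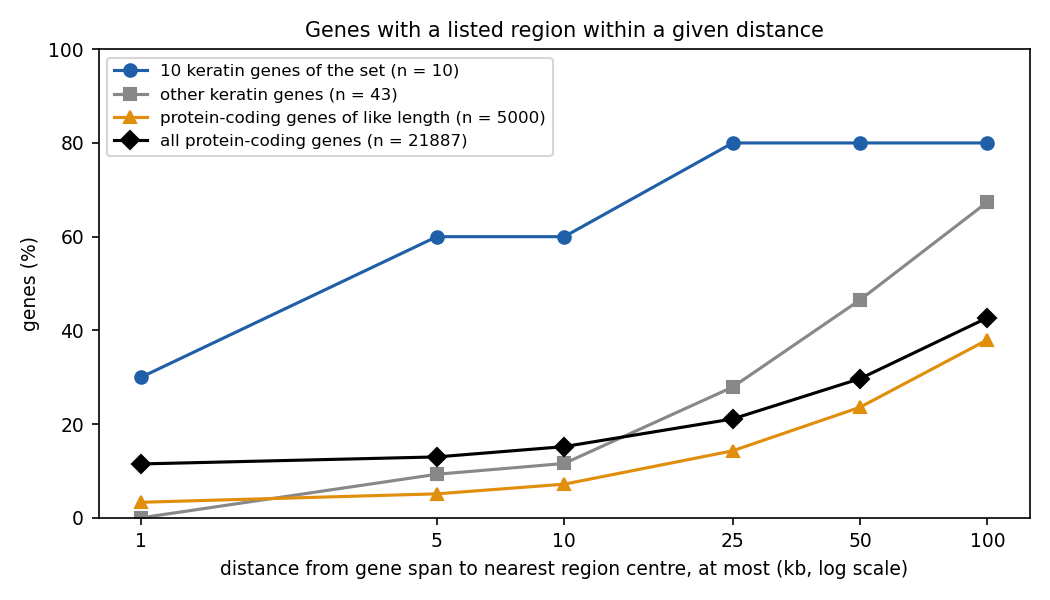
Share of genes (%) with a listed region of either width within 1, 5, 10, 25, 50 and 100 kb of the gene span (log scale), for the 10 keratin genes, 43 other keratin genes, 5000 protein-coding genes of like length and all 21887. The 10 genes reach 60.0% at 5 kb and 80.0% at 25 kb.

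The other keratin genes of the clusters lay around the same regions. Of the 43, 29 (67.4%) had a region within 100 kb, all of them narrow, against 42.7% of all protein-coding genes. As nearest gene, 2 of the 43 (4.65%) had a region of their own, against 16.9% of all and 7.86% of those of like length to the set. These were Krt88, with a region 1.12 kb away, and Krt39, with one 4.60 kb away. Within 5 kb, 6 of the 10 genes of the set had a region, against 4 of the 43 others (Krt88, Krt81, Krt36 and Krt39) and 13.0% of all protein-coding genes (5.12% of those of like length), as the plot of shares by distance shows. Krt15, a further basal type I keratin, had its nearest region 10.1 kb away, the one beside Krt19. Krt6b, the neighbour of Krt6a, was 14.1 kb from the Krt6a region. Krt7, a type II keratin of simple epithelia, was 27.2 kb from the Krt88 region. The type II genes between Krt5 and Krt8 were farther from any region, from 39.5 kb for Krt71 to 252 kb for Krt78.

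Genes whose proteins tie keratin filaments to junctions were also looked up. Of 13 linker genes, 6 had a region within 100 kb (46.2%), near the 42.7% of all protein-coding genes. Pkp2, a plakophilin gene, had a wide region inside it, and Col17a1, which encodes the hemidesmosomal collagen BP180, had a narrow region inside it. Evpl (envoplakin) had one 1.63 kb away, and Pkp3 had a wide region 5.82 kb away. Jup, which encodes plakoglobin, lies beyond Eif1 on chromosome 11 and was 49.0 kb from the Eif1 region. Evpl was the plakin gene of the list with a region within 100 kb, and Dsp, Plec, Dst, Ppl and Eppk1 had none.

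Of 15 other intermediate filament genes, 10 (66.7%) had a region within 100 kb, against 42.7% of all protein-coding genes. The 2 with one within 1 kb (13.3%) were near the 11.5% of all genes. Bfsp1, a lens filament gene, had a narrow region inside it, and Vim, the vimentin gene of mesenchymal cells, had a wide region 0.395 kb away. Bfsp2 and the neuronal gene Ina were 26.8 and 43.1 kb from one. A wide region lay within 100 kb of 3 of these genes (Vim, Lmnb1 and Lmnb2), or 20.0%, near the 19.7% of all genes. No difference between these lists was tested.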

How the data were processed

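ATAC-seq of 3 inflamed and 3 naive libraries was analysed from 1 merged list of regions with 3 columns. The 2 used here as measurements are start and end on mm10, a unit of other kind (coordinates), and the list as deposited by the authors holds no counts or signal. The authors used edgeR, HOMER 4.8, SAMtools and BWA 0.7.17-r1188, per the submitters' processing notes, which give no order or threshold. Whether libraries were pooled before regions were called is not given in the sources used here, and depth is unknown.

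Starts were counted from 0 and are printed from 1. Gene spans came from RefSeq (GRCm38.p6), matched by symbol for 10 of 10 genes, and promoter sequences from the same build. Distances run from a region's centre to the gene span. Genes are named if they belong to the set, are nearest to one of its regions, or are among the 4 of a list closest to a region. Others were named after their values were seen. The genes and lists were chosen with earlier results of these data known. No test was run, since the list has no value per sample. Distances were checked on simulated positions. Python 3.11.15 and pandas 2.3.3 were used.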

Additional observations from a re-analysis of the deposited data

How the results depend on the processing

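No paired analysis was possible because the region list carries coordinates alone, and for the same reason no library could be left out. The 8 genes with a region within 100 kb, the 10 regions and the 9 assigned by nearest gene were 8, 9 and 9 with a window of 50 kb and 8, 11 and 9 with 200 kb, and were 8, 10 and 9 with region edges in place of centres, with narrow regions alone and with regions within 1 kb merged. Narrow regions alone and merging could not change the counts, since all 10 regions are narrow and neighbouring centres lay at least 5.66 kb apart. With wide regions alone all 3 counts were 0, since no region of that width lies near the genes. The median distance of 2.69 kb was then 1999 kb. The upstream end of the gene span is known from a listed strand for 6 of the 10 genes. Measured from that end, the counts were 4 genes, 9 regions and 5 assigned regions, and the median distance was 16.4 kb. The genes left out, Krt6a, Krt19, Krt16 and Krt17, had the smallest distances of the set (0.116 to 1.34 kb). Of the 6 genes kept, 5 had distances within 1.5 times the reported value. With all annotated genes competing, 6 regions were assigned to the set, and the other results do not depend on that choice. The 42.7% of protein-coding genes with a region was 29.7% at 50 kb and 60.0% at 200 kb. From upstream ends it was 37.4%, over the 17492 genes with a listed strand only. It was 29.0% with narrow and 19.7% with wide regions alone. The exact 95% interval for the 42.7% was 42.0 to 43.3, taking genes as independent. Neighbouring genes share regions, so that interval does not measure their spread. Of 46 distances of single genes under the alternatives, 33 were within 1.5 times the reported value. Those 33 include the 10 with narrow regions alone and the 10 with merging, which left every distance unchanged.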

Other observations

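Of the 10 regions, 3 lay nearer to a noncoding gene or pseudogene than to a protein-coding gene. The farther region of Krt19 was 7.25 kb from the lncRNA gene Gm39022, that of Krt14 was 6.82 kb from the pseudogene Gm11597, and the farther region of Krt75 was 2.57 kb from the transcribed pseudogene Gm5476.

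The chromosome 11 group was among the fuller stretches of the list. Of the 6502 regions, 28 (0.431%) begin a stretch of 206 kb that holds 7 regions or more, and the fullest such stretch holds 9. On chromosome 15, 958 regions (14.7%) begin a stretch of 119 kb with at least 3. Stretches that begin at neighbouring regions overlap, so neither count is one of separate stretches. Both lengths were set by the keratin regions themselves, so these are descriptions with no test. Of the 10 regions, 1 shared a base with a promoter window, against 9.07% of the list. No promoter window was listed for Krt17, Krt16, Krt19 and Krt6a, so an overlap at their starts could not be counted. The regions beside Krt6a, Krt19 and Krt16 lay 45, 63 and 239 bases beyond the higher-coordinate end of the gene.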
